A study of Mus musculus with 2 samples.

Results

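The splicing factor genes described here are the protein-coding genes on the mouse autosomes whose symbols begin with Srsf, Snrp, Hnrnp, Sf3a, Sf3b, Prpf or Lsm followed by a number or letter. Of 20665 such protein-coding genes in the RefSeq annotation, 80 fitted this rule, and 32 of the 80 had a Myc-Tag ChIP-seq interval with its summit within 1 kb of an annotated end of the gene. The data come from a Lck-Dlx5 T-cell lymphoma, in which a Myc-tagged Dlx5 homeobox protein is expressed from a transgene driven by Lck sequences in T-lineage cells. Chromatin immunoprecipitation followed by sequencing (ChIP-seq) with a Myc-Tag antibody recovered the DNA bound by the tagged protein, and an input library served as the control, with 1 library each and no replicates. The labels give both samples as primary tumor and the strain as C57BL/6 for the ChIP and C57BL/7 for the input, whereas the methods name a tumor-derived cell line and an IgG control. The age of the animal is not given, and a tumor line is 1 clone. The deposited tracks hold 3477 Myc-Tag intervals and 28 input intervals, each with a summit and its height, a whole-number score that rises with the pile-up of reads. Read totals and the normalization of the height were not given in the sources used here, so the depth is unknown. For a gene listed without an interval the data show the lack of a call, not the lack of binding. The tracks hold no expression values, so the T-cell label was not checked against marker transcripts.

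Splicing removes introns from messenger RNA precursors. It is carried out by the spliceosome, which is built from small nuclear ribonucleoprotein particles (snRNPs), each holding a U-rich small nuclear RNA in a ring of Sm or Sm-like proteins. SR proteins (Srsf genes) mostly bind exons and favor their inclusion, whereas hnRNP proteins coat the nascent transcript and often act against exon inclusion. The SF3a and SF3b complexes belong to the U2 snRNP and hold it on the branch site, and the Prpf genes encode homologs of yeast pre-mRNA processing factors. T cells change the splicing of many transcripts on activation, that of the CD45 phosphatase being a well-known case.

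Of the 80 genes, 32 (40%, 95% Wilson interval 30 to 51.0%) had an interval at an end, and 48 had none. Over all 20665 autosomal protein-coding genes the same rule called 2345, or 11.3%. The share by family was 6 of 9 for the Sf3 genes, 10 of 20 for Hnrnp, 6 of 13 for Prpf, 4 of 11 for Srsf, 4 of 13 for Lsm and 2 of 12 for Snrp. With so few genes per family the Wilson intervals were wide, from 35.4 to 87.9% for Sf3 and from 4.7 to 44.8% for Snrp, and they overlapped one another. The Snrp share was the one nearest to that of all genes. The symbols Lsmem1 and Lsmem2 fitted the rule by their letters but encode membrane proteins unrelated to Sm-like proteins, and neither had an interval. With a limit of 500 bp in place of 1 kb, 24 of the 80 genes were called (beside 9.54% of all genes), with 5 kb 37 (15.5%) and with 10 kb 42 (18.6%). Overlap of the interval with a gene end gave 28 (9.27%), and summits of at least the median height of 16 gave 19 (6.01%). Without intervals that another protein-coding gene shared, 17 were left (21.2%, beside 7.67% of all genes). These shares come from 1 library and have no replicate check, and the Wilson intervals cover counting error only.

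**Figure D1:**
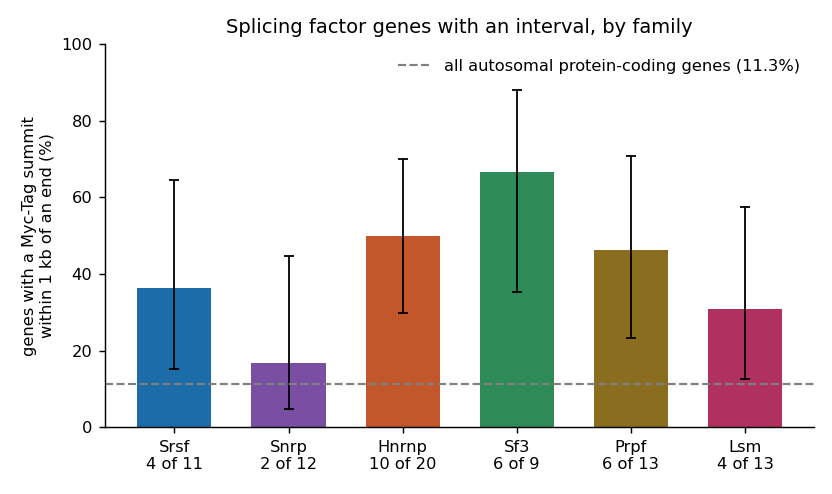
Bars give the percentage of genes in each symbol family with a Myc-Tag summit within 1 kb of a gene end, with 95% Wilson intervals as error bars, and the dashed line marks the 11.3% of all autosomal protein-coding genes. The Sf3 bar is the highest at 66.7%, and the Snrp bar the lowest at 16.7%.

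The 32 genes were served by 35 separate intervals, none of which was shared by a pair of the 80 genes. Of the 32, 3 genes (Srsf3, Hnrnpa2b1 and Hnrnpa3) had 2 intervals each. To show what lay upstream of the genes with the tallest summits, the 250 bases before the annotated start are given for the tallest interval of each family for which RefSeq promoter sequence of GRCm38.p6 was at hand. Among the Hnrnp genes with a promoter, Hnrnpa1, Hnrnpc and Hnrnpk tied at a height of 23, and Hnrnpc was taken because its summit was the nearest to a gene end (121 bp, against 167 and 911 bp). The start is that of the transcript in the promoter table, which can lie inside the gene: it matched the outer end of the gene, to within 1 bp, for 36 of 69 genes and was up to 2344 bp inside it for the rest. Elsewhere, distances are from the outer end. They are written from 5′ to 3′ along the gene. Capitals mark matches on either strand to TAATT, the core motif of the Dlx family, CCAAT (bound by NF-Y), GGGCGG (the GC box), CCGGAA (the Ets core), CACGTG (the E-box) or TATAAA (the TATA box), and neighboring matches can run into each other.
Srsf10 (chr4:135855821-135856070, plus strand): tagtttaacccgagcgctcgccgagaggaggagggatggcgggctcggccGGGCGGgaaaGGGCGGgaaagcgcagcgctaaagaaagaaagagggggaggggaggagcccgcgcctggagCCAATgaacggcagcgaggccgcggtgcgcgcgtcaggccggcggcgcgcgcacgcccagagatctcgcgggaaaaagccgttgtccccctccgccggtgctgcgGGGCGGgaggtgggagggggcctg
Snrpc (chr17:27839837-27840086, plus strand): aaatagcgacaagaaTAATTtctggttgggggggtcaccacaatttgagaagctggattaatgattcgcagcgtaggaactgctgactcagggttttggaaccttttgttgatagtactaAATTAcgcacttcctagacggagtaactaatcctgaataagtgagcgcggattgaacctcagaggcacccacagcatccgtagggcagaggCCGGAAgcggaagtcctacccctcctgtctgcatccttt
Hnrnpc (chr14:52104022-52104271, minus strand): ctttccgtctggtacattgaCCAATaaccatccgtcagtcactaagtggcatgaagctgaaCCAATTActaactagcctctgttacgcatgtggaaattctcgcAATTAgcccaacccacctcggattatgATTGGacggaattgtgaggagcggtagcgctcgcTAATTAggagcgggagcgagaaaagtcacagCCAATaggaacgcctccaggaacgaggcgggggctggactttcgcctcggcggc
Sf3a3 (chr4:124714611-124714860, plus strand): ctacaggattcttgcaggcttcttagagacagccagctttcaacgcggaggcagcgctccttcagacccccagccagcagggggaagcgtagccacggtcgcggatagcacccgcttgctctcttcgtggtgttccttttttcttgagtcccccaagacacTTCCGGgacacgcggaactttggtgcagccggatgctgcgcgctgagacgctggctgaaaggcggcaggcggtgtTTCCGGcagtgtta
Prpf38b (chr3:108911730-108911979, minus strand): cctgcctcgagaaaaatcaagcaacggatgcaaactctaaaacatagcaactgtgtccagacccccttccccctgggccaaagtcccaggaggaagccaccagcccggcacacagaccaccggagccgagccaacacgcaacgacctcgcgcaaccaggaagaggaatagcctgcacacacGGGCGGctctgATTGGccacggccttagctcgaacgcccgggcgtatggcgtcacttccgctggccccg
Lsm14a (chr7:34389706-34389955, minus strand): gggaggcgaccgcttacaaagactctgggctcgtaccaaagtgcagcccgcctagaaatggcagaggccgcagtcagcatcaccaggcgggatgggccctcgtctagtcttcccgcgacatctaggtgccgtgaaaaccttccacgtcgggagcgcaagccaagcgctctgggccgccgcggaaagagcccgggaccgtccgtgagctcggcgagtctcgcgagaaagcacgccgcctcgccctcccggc
In each of these 6 cases the Myc-Tag interval overlapped the bases shown. The summit itself lay within them for Sf3a3, 77 bp before the transcript start, for Snrpc and Lsm14a, each 87 bp before it, and for Hnrnpc, 139 bp before it. For Srsf10 and Prpf38b the summit lay beyond them, 121 and 465 bp after the transcript start. Measured from the outer end of the gene, the Lsm14a summit was 234 bp inside, because its transcript start lies 321 bp inside that end.

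Among the SR protein genes, Srsf10, Srsf2, Srsf3 and Srsf1 had intervals. Srsf10, which encodes a splicing repressor active in its dephosphorylated form, had the tallest summit of the family at a height of 20, 440 bp inside the gene (chr4:135855396-135856998). Srsf2, the gene of the nuclear speckle protein SC35, had a height of 19 and an interval of 1922 bp that was also within 1 kb of Mfsd11. Srsf3, the gene of the smallest SR protein, had a summit of 16 at its start and another of 13 beyond its other end, 340 bp outside the gene. For Srsf1, which encodes the SR protein ASF/SF2, the interval that met the rule was low, with a height of 10 and a summit 987 bp beyond the downstream end. A taller Srsf1 interval had a height of 26 (chr11:88047184-88048671). Its summit was 1117 bp after the outer start and so fell just outside the 1 kb allowed. The Srsf1 transcript start of the promoter table lies 874 bp inside the gene, and this summit was within 1 kb of it. The Srsf1 count therefore rested on the weaker of its intervals, and the height of 26 exceeded those of all 35 intervals counted. The other 7 genes (Srsf4, Srsf5, Srsf6, Srsf7, Srsf9, Srsf11 and Srsf12) had none at an end. The nearest summit was 5083 bp from an end of Srsf11, inside that gene, and between 14.7 and 1060 kb away for the others.

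The Hnrnp genes carried 12 intervals, with heights from 10 to 25 and a median of 16.5. Hnrnpul2, a relative of the hnRNP U gene, had the tallest summit of all 35 intervals, at 25 (chr19:8818652-8820866), and 284 of 3453 autosomal intervals (8.22%) were taller. Hnrnpa1, Hnrnpc and Hnrnpk followed with 23 each, a height exceeded by 11.5% of autosomal intervals. The protein hnRNP A1 binds exonic silencers, hnRNP C binds uridine tracts and hnRNP K binds cytidine-rich RNA. Hnrnpll, whose product represses CD45 exons in activated T cells, had a summit of 17, and its relative Hnrnpl, whose product binds CA repeats, had one of 13 at 2 bp from the annotated start. In the A/B group, 3 of 4 genes had intervals: Hnrnpa1, Hnrnpa2b1 with heights of 18 and 12, and Hnrnpa3 with 14 at its start and 10 beyond its end. The related Hnrnpa0 had none, the nearest summit being 30.2 kb away. Of the D group, Hnrnpab had a height of 16 and Hnrnpdl one of 14. None of the 3 F/H genes (Hnrnpf, Hnrnph1 and Hnrnph3), whose products bind guanine runs, had an interval, with the nearest summit at least 20.8 kb away. The rest without an interval at an end were Hnrnpd, Hnrnpu, Hnrnpul1, Hnrnpm, Hnrnpr and Hnrnpa1l2-ps2, which the annotation lists as protein-coding despite its pseudogene symbol. Hnrnpu, a scaffold attachment factor, and Hnrnpd, the AU-rich element binding protein AUF1, had summits inside the gene, with heights of 21 and 16. They lay 1899 and 1386 bp after the outer start. The Hnrnpu summit was within 1 kb of its transcript start in the promoter table, 1076 bp inside the gene. The summit nearest to Hnrnpul1 was 2377 bp away.

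Of the 12 Snrp genes, 2 had an interval. Snrpc, whose product U1-C helps the U1 snRNP to recognize the 5′ splice site, had a summit of 23 (chr17:27839783-27840368), with an interval of 586 bp. Snrpb, the gene of the Sm protein B, had a height of 13, exceeded by 70.9% of autosomal intervals. Snrpb was the 1 called gene among the 7 of the Sm ring, and Snrpd1, Snrpd2, Snrpd3, Snrpe, Snrpf and Snrpg had no interval at an end. Snrpd1 was nearest, at 7428 bp, and the others were between 25.7 and 446 kb from a summit. The remaining genes without an interval were Snrpa (U1-A), Snrpa1 and Snrpb2 (the U2 proteins A′ and B″), and Snrpn, an imprinted gene whose nearest summit was 1530 kb away.

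Of the Sm-like genes, 3 of the 7 that form the LSm2 to LSm8 ring on the U6 RNA had intervals, namely Lsm6 with a height of 15, Lsm4 with 12 and Lsm8 with 12. A height of 15 was exceeded by 50% of autosomal intervals, and one of 12 by 81.3%. Lsm14a, a gene for a P-body protein that acts on mRNA storage rather than splicing, had the tallest summit of the family, at 23 (chr7:34389248-34390179). Neither Lsm10 nor Lsm11, which belong to the U7 snRNP of histone mRNA processing, had an interval within 1 kb, although the nearest summit to Lsm11 was 1450 bp away. Lsm1, Lsm2, Lsm3, Lsm5, Lsm7, Lsm12 and Lsm14b also had none.

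All 3 SF3a genes had an interval. Sf3a3 had a height of 24 (chr4:124714470-124715175), Sf3a2 a height of 20 and Sf3a1 a height of 17. Of the 6 SF3b genes, Sf3b3 had a height of 17, Sf3b2 13 and Sf3b4 12. The Sf3b2 summit was 673 bp beyond the downstream end of the gene and only 129 bp from an end of Pacs1. Sf3b1, which encodes the branch site subunit known for mutations in leukemia, had no summit within 59.2 kb, and for Sf3b5 and Sf3b6 the distances were 85.7 and 89.6 kb.

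The Prpf genes with an interval had heights between 12 and 18. Among them were Prpf38b with 18, Prpf18, a factor of the second catalytic step, with 17, Prpf19, the ubiquitin ligase of the Prp19 complex, with 15, Prpf31 with 15, and Prpf38a with 12. Among the 5 Prpf genes of the U4/U6.U5 tri-snRNP, Prpf31 was the 1 with an interval. Prpf4 missed the limit by a summit 1018 bp away with a height of 13, and Prpf3 by one 6163 bp away with a height of 37. Prpf8, the protein at the heart of the catalytic center, had its nearest summit 21.9 kb away, and Prpf6 had it at 23.3 kb. Prpf39, Prpf40b and Prpf4b were at least 10.5 kb from a summit.

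**Figure D2:**
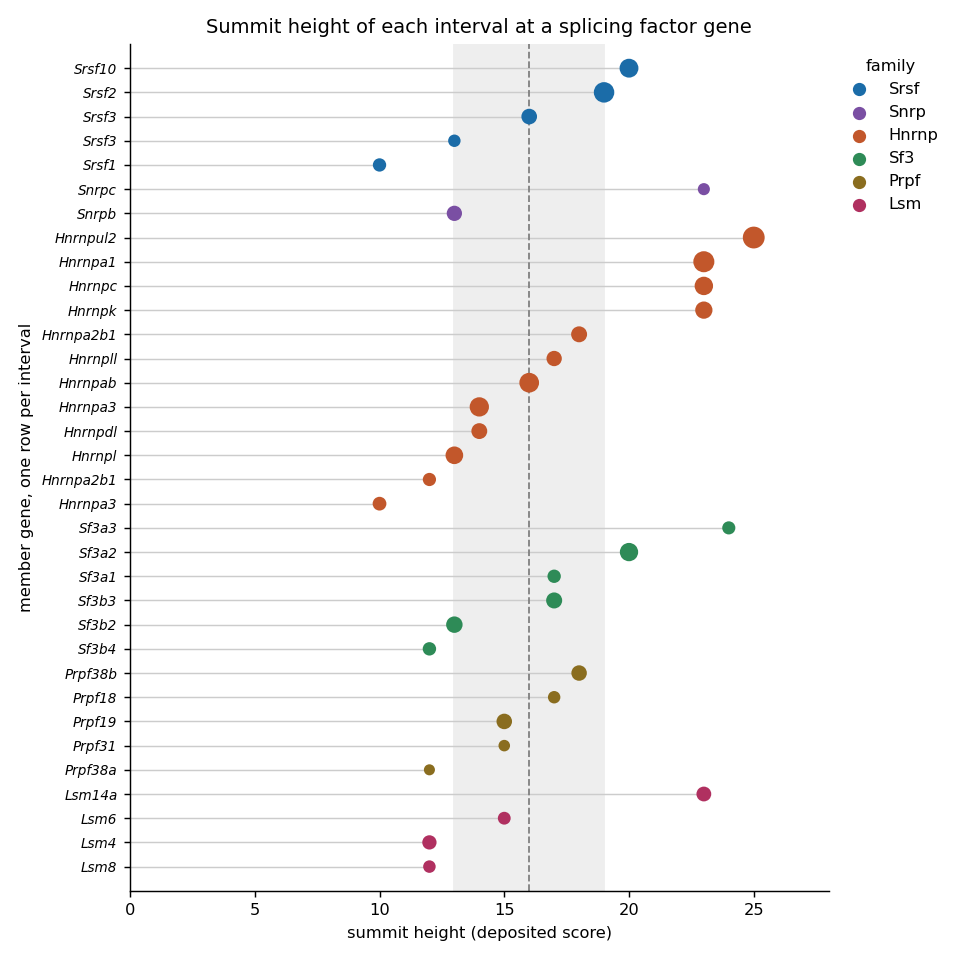
Each row is 1 interval at a splicing factor gene (34 of the 35 are shown), placed by summit height (deposited score, no unit) and colored by family, with the dot area proportional to interval width. The shaded band spans the quartiles (13 to 19) and the dashed line the median (16) of all 2024 autosomal intervals at protein-coding gene ends. The heights run from 10 to 25, on both sides of that median.

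The heights at the splicing factor genes spanned the middle of the range seen at gene ends. Their median was 16, with quartiles of 13 and 19.5, beside a median of 16 and quartiles of 13 and 19 for all 2024 autosomal intervals at protein-coding gene ends. Of the 35 heights, 16 were above 16, 3 equalled it and 16 were below. Of all intervals at gene ends, 149 of 2024 (7.36%) exceeded 25, and none of the 35 did. The intervals were, however, wider. Their median width was 1031 bp, against 813 bp for all those at gene ends, and 20 of 35 (57.1%) were wider than 1000 bp, against 27.3%. The widest were those of Hnrnpul2 (2215 bp), Hnrnpa1 (2042 bp) and Srsf2 (1922 bp), and the Hnrnp median was 1350 bp. Since only 1 library was made, the spread of heights and widths between replicates is unknown and these differences were not tested.

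In the input library, 0 of the 35 had a call, which allows a share of up to 8.57%. Calls in the input were rare at such heights, as 1 of the 3192 Myc-Tag intervals of height 25 or less (0.0313%) was also called in the input. The absence of input calls at these genes was thus shared with nearly all intervals of like height.

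The summits lay mainly at gene starts. The start is here the outer annotated end on the 5′ side. For 28 of the 35 intervals the strand of the gene was at hand, and 24 of these (85.7%, 95% Wilson interval 68.5 to 94.3%) were nearer to the start than to the end. Over all protein-coding genes it was 1819 of 1968 (92.4%). The 4 at the downstream end were the Srsf1 interval, the lower ones of Srsf3 and Hnrnpa3, and that of Sf3b2. Of the 24 at a start, 11 were upstream and 13 downstream, and the median distance from the start was 225 bp, beside 181 bp for all genes. Measured instead from the transcript starts of the promoter table, the Hnrnpdl, Hnrnpk and Lsm14a summits were upstream. Most of the 24 were then upstream, so the split depends on the start used. The positions ranged from 952 bp before the start, for the lower Hnrnpa2b1 interval, to 911 bp after it, for Hnrnpk. The summits of Hnrnpdl, Hnrnpa3, Hnrnpab, Srsf2 and Hnrnpk were more than 500 bp inside the gene. For Hnrnpdl, Srsf2 and Hnrnpk the summits were 544, 779 and 911 bp inside. Their transcript starts in the promoter table lie 714, 581 and 1226 bp inside. Against those starts the Hnrnpdl and Hnrnpk summits were upstream, and the Srsf2 summit stayed downstream. Because most summits in the file sit on multiples of 16 bp, a distance such as the 2 bp of Hnrnpl is not exact to the base. Exons and introns are not in the gene table used, so the summits inside genes were not assigned to them.

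**Figure D3:**
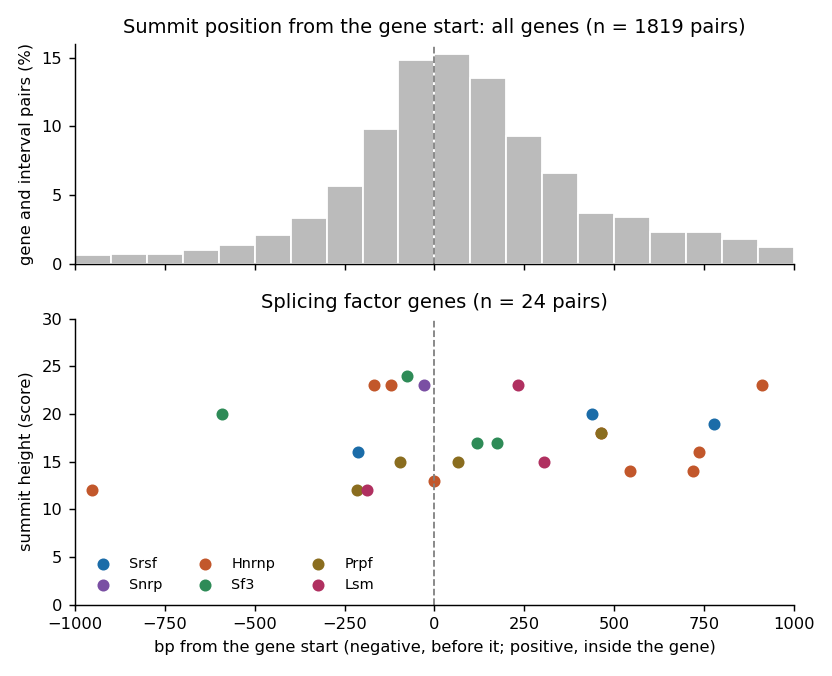
The upper panel is a histogram of summit positions relative to the gene start, in bp, for all 1819 pairs of a protein-coding gene and an interval nearest to its start, as a percentage of pairs. The lower panel plots the 24 pairs of splicing factor genes by position and summit height, where 11 lie before the outer annotated start and 13 after it.

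Away from the ends, 6 of the 80 genes had a summit in the gene body more than 1 kb from either end (7.5%, 95% Wilson interval 3.48 to 15.4%), beside 3.98% of all protein-coding genes. The Wilson interval for the 80 genes included the share of all genes, and the median gene length was 12.4 kb for the 80 and 17.5 kb for all. The body summits were the intervals of Srsf1, Hnrnpu and Hnrnpd described above, that of Srsf11 with a height of 13, and further ones in Hnrnpl, with a height of 15 at 2510 bp after the start, and Prpf38b, with a height of 10 at 1286 bp after the start. Hnrnpu, Hnrnpd and Srsf11 had a summit in the body and none at an end. All 6 summits lay between 1117 and 5083 bp after the outer start, from which the shares above were also counted. The transcript starts of the promoter table lie 2344, 874 and 1076 bp inside the gene for Hnrnpl, Srsf1 and Hnrnpu. The body summits of these genes were within 1 kb of those starts, whereas those of Hnrnpd, Srsf11 and Prpf38b were not.

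Many of the intervals stood between close neighbors. Another protein-coding gene had an end within 1 kb of the summit at 16 of the 35 intervals (45.7%, Wilson interval 30.5 to 61.8%). In 12 of the 16 the neighbor was the nearer gene. Of all 2024 intervals at gene ends, 403 (19.9%) were shared. These shares are not like for like. The 35 were found through their genes, which favors intervals at more than 1 gene, whereas the 2024 count each interval once. Counted by gene, leaving out shared intervals took the 80 genes from 32 called to 17. It took all genes from 2345 called to 1584. The neighbors of Hnrnpa1 and Hnrnpa2b1 were Cbx5 and Cbx3, which encode heterochromatin proteins of the HP1 family. The Hnrnpa1 summit lay 167 bp from its gene and 128 bp from Cbx5, and the taller Hnrnpa2b1 summit lay 464 bp from its gene and 570 bp from Cbx3. The region between the human counterparts of Hnrnpa2b1 and Cbx3 is known as a ubiquitous chromatin opening element. The Hnrnpk summit was 184 bp from Rmi1 and 911 bp from Hnrnpk, and the Hnrnpc summit was 81 bp from Rpgrip1. Other pairs were Srsf2 with Mfsd11, Prpf31 with Tfpt, Sf3b3 with Cog4, Sf3a2 with Plekhj1 and Hnrnpul2 with Ttc9c. At such an interval the gene to which a peak belongs cannot be told apart by position. The median width was 1149 bp for the 16 shared intervals and 860 bp for the other 19, and it was 861 and 800 bp for shared and unshared intervals at all gene ends.

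By annotation alone, 36 of the 80 genes (45%) had another protein-coding gene end within 1 kb of one of their own, against 25.6% of all genes. Having such a neighbor went along with an interval among all genes, at 19.7% with and 8.47% without one. The rule credits a summit to every gene with an end within 1 kb, so part of this difference follows from the rule itself. Among the splicing factor genes the shares were 38.9% (14 of 36) with a neighbor and 40.9% (18 of 44) without. In both classes the share was above that of all genes in the same class.

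The promoters of these genes were rich in CpG sites. RefSeq windows from 250 bases before to 50 after the start were matched for 69 of the 80 genes and for 16457 protein-coding genes in all, with 1 window per gene. The splicing factor promoters held a median of 24 CpG sites, against 14 for all genes. The median was 25 for the 25 genes with an interval and 24 for the 44 without, whereas for all genes it was 24 with and 12 without an interval. Among all genes with at least 24 CpG sites in the window, 21.7% had an interval, and 7.57% of those with fewer. Among the splicing factor genes it was 35.0% (14 of 40) and 37.9% (11 of 29), above the share of all genes on both sides of that limit. CpG counts were not matched within either side. Over all windows the lower quartile was 20 sites for the splicing factor promoters and 4 for all genes. The genes with fewer than 24 sites were thus unlike in CpG content.

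The Dlx core TAATT, counted with its reverse complement AATTA, occurred in 14 of the 69 windows (20.3%) and in 23.9% of all windows. A window starts from the transcript start of the promoter table, which for 5 of the 69 genes lies over 1000 bp inside the gene. Of the 25 splicing factor genes with an interval, 4 (16%) had a match, and of the 44 without, 10 (22.7%). For all genes the shares were 15.1% with and 25% without an interval. The 4 genes were Hnrnpa1, Hnrnpc, Hnrnpk and Snrpc, and the promoters of Hnrnpc and Snrpc shown above carry these matches on both strands. The summits of the 4 genes had a height of 23, as did that of Lsm14a, whose window held no match, and the taller Sf3a3 (24) had none either. A match of these 5 letters is a description of the window and does not mark a bound site, and the summits of many intervals lie outside the window.

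Other short motifs were counted in the same windows on both strands. CCAAT (or ATTGG) occurred in 18 of 25 splicing factor genes with an interval (72.0%, 95% Wilson interval 52.4 to 85.7%) and in 17 of 44 without (38.6%, 25.7 to 53.4%). For all genes it was 38.8% with an interval and 39.2% without. The 2 Wilson intervals for the splicing factor genes overlap slightly, and this contrast was the largest among the 6 motifs. An interval here can lie at either end of the gene. Srsf1 and Sf3b2, which hold CCAAT, were called only beyond the downstream end. Hnrnpu, which lacks it, counted as without despite a summit within 1 kb of its transcript start. CCGGAA (or TTCCGG) was present in 44.9% of the 69 windows and 19.6% of all windows. It was found in 13 of 25 genes with an interval and 18 of 44 without (52.0% and 40.9%), beside 36.9% and 17.3% of all genes with and without one, and the Sf3a3 promoter above holds it at 2 places. GGGCGG (or CCGCCC) was present in 66.7% of the 69 windows and 47.3% of all, with 14 of 25 (56.0%) and 32 of 44 (72.7%) for genes with and without an interval. Over all genes the order was the other way, with 68.4% of those with an interval and 44.6% of those without. The palindrome CACGTG occurred in 7 of the 69 windows (10.1%) and 7.97% of all, and TATAAA (or TTTATA) in 7 (10.1%) and 13.5%. Of the sequences above, that of Lsm14a holds none of the 6 motifs.

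**Figure D4:**
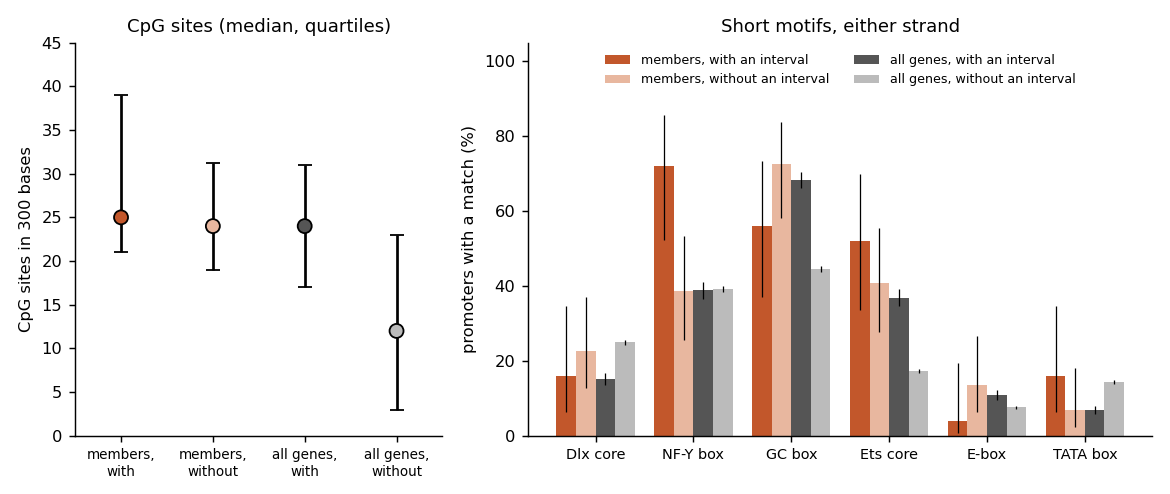
The left panel gives the median number of CpG sites per 300-base promoter window with quartiles, and the right panel the percentage of windows with a match to each of 6 short motifs on either strand with 95% Wilson intervals, for splicing factor genes (members) and all genes with and without an interval. The NF-Y box was matched in 72.0% of the splicing factor genes with an interval and in 38.6% to 39.2% of the other groups. Its Wilson intervals for splicing factor genes with and without an interval overlap. The Dlx core was matched in 15.1% to 25% of each group. An interval can lie at either end of the gene.

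Other genes of the splicing pathway, listed by role and outside the symbol families, were called at a like rate. Of 119 such genes on autosomes, 49 (41.2%, 95% Wilson interval 32.7 to 50.2%) had an interval at an end, with a median height of 16. The share was 7 of 10 for SR-related proteins and 8 of 12 for proteins of the U2 snRNP and branch site recognition. It was 6 of 12 for the U5 and tri-snRNP proteins, 2 of 4 for U1 proteins, 10 of 25 for regulators of alternative splicing and 4 of 11 for snRNP assembly factors. It was 3 of 9 for the minor spliceosome, 7 of 25 for the Prp19 complex and catalytic core, 1 of 5 for the exon junction complex and 1 of 6 for the SR protein kinases.

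This list held 4 genes with a summit above 25, the greatest height counted at the 80 genes. Ewsr1, an RNA-binding protein gene rearranged in Ewing sarcoma, had a height of 52, exceeded by 0.753% of autosomal intervals. Rbm25, a regulator of 5′ splice site choice, had a height of 47, and Puf60, which acts in 3′ splice site recognition with U2AF, one of 34. Eftud2, the GTPase of the U5 snRNP, had 29. Below that limit, Snrnp200, the helicase that unwinds U4 from U6, had 24. Lower in the same classes were Fubp1 (21), Phf5a (19), a small subunit of SF3b, and Pnn (18). The tallest in the other classes were Bud31 (21) and Isy1 (20) of the catalytic core, Wdr77 (21) and Gemin7 (20) of snRNP assembly, and Clk3 (18), an SR protein kinase. Eif4a3 of the exon junction complex had 18, Zcrb1 (17) and Txnl4b (16) were the tallest of the minor spliceosome, the Txnl4b interval being the one that also called Dhx38 of the catalytic core, and Luc7l (14) and Luc7l3 (11) of the U1 proteins. The U2AF subunit genes U2af1 and U2af2, which bind the 3′ splice site and the polypyrimidine tract and were picked after their values were seen, had heights of 18 and 16. For each of the 49 genes, the tallest interval had no call in the input.

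**Figure D5:**
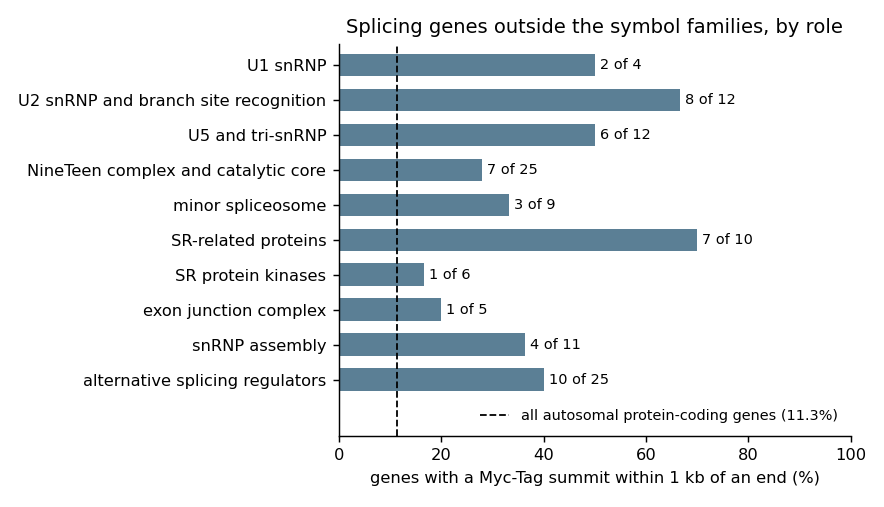
Bars give the percentage of splicing genes outside the symbol families with a Myc-Tag summit within 1 kb of a gene end, by role, with the count beside each bar and the 11.3% of all autosomal protein-coding genes as a dashed line. SR-related proteins are highest with 7 of 10, and SR protein kinases lowest with 1 of 6.

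For comparison, 9 of 38 proteasome subunit genes (23.7%, 95% Wilson interval 13.0 to 39.2%) had an interval by the same rule. So did 15 of 53 genes whose symbols begin with Eif and a number (28.3%, 18 to 41.6%), a set meant for translation initiation factors. This symbol pattern also took in Eif2ak3, a kinase gene, and Eif4a3, which is counted above in the exon junction complex. Both of these had an interval. Both Wilson intervals overlap that of the splicing factor genes, so a difference between these groups was not shown. Their median heights were 17 and 15.

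Chromosome 15, where intervals were taller (median 18 against 15 elsewhere) and wider (1017 against 739 bp), held 3 of the 80 genes, of which Hnrnpa1 had an interval. Without that chromosome the share was 40.3% (31 of 77), beside 11.0% of all genes. Of the splicing genes outside the families, 7 lay on chromosome 15 and 6 of them had an interval, Puf60 and Phf5a included. Of all protein-coding genes on that chromosome, 21.3% had one. Without chromosome 15, the share of the splicing genes outside the families was 38.4% (43 of 112). The paper names trisomy 15 as the only abnormality that recurred in Lck-Dlx5 lymphomas. Its bearing on the heights, widths and shares given here was not tested.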

How the data were processed

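The data were 1 Myc-Tag ChIP and 1 input library of a Lck-Dlx5 T-cell lymphoma. Per the methods, Active Motif sequenced them on an Illumina GA II and called peaks by MACS p-value. The submitters' processing notes name BWA and build mm9. The authors deposited 5 tracks holding intervals, summits and active regions, where the value of a summit is its height, a score without stated normalization. Of the autosomal summits, 58.6% lay within 1 kb of a protein-coding gene end of GRCm38 (mm10), a zone that covers 3.08% of the gene span, so GRCm38 coordinates were used despite the note.

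Summits were joined to their intervals and to RefSeq gene ends (GRCm38.p6), with strand taken from the RefSeq promoter table. Interval starts are counted from 1. A gene was called when a summit lay within 1 kb of either end. Genes, lists and motifs were chosen with earlier results of these data known. Members of the symbol rule are named, except 1 that is counted but not reported here by name, and of the other splicing genes the 2 tallest per role, plus U2af1 and U2af2, added after their values were seen, and Dhx38, which shares an interval. Of 120 symbols in that list, 1 was not on an autosome. No p-value was computed, since there was 1 library per group. Counts and Wilson intervals were computed with pandas 2.3.3, scipy 1.17.1 and numpy 2.4.6 under Python 3.11.15, figures were drawn with matplotlib 3.10.9, and the joining step was tested on simulated data.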

Additional observations from a re-analysis of the deposited data

How the results depend on the processing

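The alternatives were other distances, overlap of the interval with a gene end, a height of at least 16 (the median), starts only, and leaving out input calls, chromosome 15, shared intervals or Lsmem, and, for TAATT, the forward strand alone (9 of 69 windows, 13.0%). Of 41 values under an alternative, 28 stayed inside the 95% interval of the value reported, or within 1.5 times the count. The other 13 moved. With 10 kb, the share with an interval was 52.5% of the splicing factor genes, 50.4% of the other splicing genes and 18.6% of all genes, and the intervals at the splicing factor genes numbered 57 in place of 35. With 5 kb the share of all genes was 15.5%. With 500 bp it was 31.9% of the other splicing genes and 9.54% of all genes, and with overlap of a gene end 9.27% of all genes. At heights of 16 or more it was 23.8% of the splicing factor genes, 26.1% of the other splicing genes and 6.01% of all genes, and without shared intervals 21.2% of the splicing factor genes. Within 5 kb, 66.7% of summits were nearer to the start. The share of splicing factor genes was above that of all genes under each of these alternatives.

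No paired analysis was possible because there was a single library per group, so that leaving out a replicate could not be tried either. Depth is unknown and limits what an absent interval can show.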

Other observations

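Hnrnph2, the 1 gene that fits the symbol rule on chromosome X, had its nearest summit 1.61 Mb away. A noncoding gene, annotated as a long noncoding RNA, had an end within 1 kb of the summit at the starts of Srsf3 (Gm16196) and Hnrnpa3 (Gm39859). Lsmem2 had a summit with a height of 26 at 5010 bp from its nearest end.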
